A study of Mus musculus with 25 samples.

Results

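Distal ATAC-seq peaks lying more than 10 kb and at most 100 kb from the nearest annotated transcription start site (TSS) were compared between a mouse alpha-cell line and a mouse beta-cell line. The distance deposited with each consensus peak chose them, on the autosomes other than 1, 6 and 14, and 20777 of 65053 consensus peaks qualified. No accessibility value was used in the choice. The lines were αTC1, the clonal line alpha TC1 clone 6, and βTC6, the line beta-TC-6, each with 5 ATAC-seq libraries and 3 RNA-seq libraries. A further 9 ATAC-seq libraries, 1 each, came from mixtures holding 10 to 90% αTC1 cells in steps of 10%, the rest being βTC6 cells. Both lines were bought from a cell bank and grown untreated, in media that differed in glucose, serum and supplements. Each line grew from a pancreatic islet tumor of a transgenic mouse carrying the SV40 large T antigen, under the glucagon promoter for αTC1 and the insulin promoter for βTC6, so each is a transformed line and not a population of islet cells. Nothing in the labels says that replicates were separate cultures, and p-values therefore measure only the spread between these libraries.

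ATAC-seq reads out where the Tn5 transposase can cut DNA, and a peak marks a stretch that nucleosomes leave accessible. Accessible sites at a distance from a promoter are often enhancers, where transcription factors bind and from which they act on promoters, and such sites tend to differ more between cell types than promoters do. In islets, alpha cells secrete glucagon, whereas beta cells secrete insulin and rely on Pdx1, MafA and Nkx6-1.

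The sequences below show the strongest distal peaks in each direction, a pair near the beta-cell genes Slc2a2 and Ins1, and a peak open alike in both lines. They are read from the plus strand of mm9, up to 300 bases about the middle of the peak. The first 3 were more open in βTC6, the next 3 in αTC1, the next 2 in βTC6, and the last, near Rell1, was called in neither direction and was chosen after its values were seen because it holds the core letters of the CTCF motif. Among the αTC1 peaks, the one near Dhx30 ranks higher but overlaps an annotated UTR and is not printed. Capitals mark exact matches, on either strand, to the letters of 12 motifs. These were the homeodomain core TAATTA, an E-box with the letters CAGCTG, an E-box with the letters CAGATG, the forkhead letters TGTTTAC, the AP-1 letters TGANTCA, the RFX letters GTTGCCA, the NF1 letters TTGGCA, the MAF letters TGCTGAC, the letters CAAAGTC of DR1 (a nuclear receptor element), the HNF1 letters GTTAAT, the GATA letters AGATAA and the CTCF core AGGGGGC. In the Ins1 peak an AP-1 and a MAF match overlap and appear as a single run of capitals.
Rgs9 peak, chr11:109131087-109131386: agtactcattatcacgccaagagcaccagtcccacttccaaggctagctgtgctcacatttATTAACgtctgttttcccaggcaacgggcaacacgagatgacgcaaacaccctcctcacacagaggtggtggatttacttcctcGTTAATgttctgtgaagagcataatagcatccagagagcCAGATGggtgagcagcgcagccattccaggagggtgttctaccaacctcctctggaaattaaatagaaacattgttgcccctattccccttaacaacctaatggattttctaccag
Unc5d peak, chr8:30232280-30232579: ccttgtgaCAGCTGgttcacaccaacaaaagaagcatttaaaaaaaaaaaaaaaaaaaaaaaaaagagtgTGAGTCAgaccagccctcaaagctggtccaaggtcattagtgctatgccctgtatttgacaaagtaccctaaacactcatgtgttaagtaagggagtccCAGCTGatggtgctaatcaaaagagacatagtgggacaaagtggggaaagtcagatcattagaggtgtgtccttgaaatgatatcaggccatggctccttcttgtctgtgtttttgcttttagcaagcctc
Tle1 peak, chr4:71821194-71821493: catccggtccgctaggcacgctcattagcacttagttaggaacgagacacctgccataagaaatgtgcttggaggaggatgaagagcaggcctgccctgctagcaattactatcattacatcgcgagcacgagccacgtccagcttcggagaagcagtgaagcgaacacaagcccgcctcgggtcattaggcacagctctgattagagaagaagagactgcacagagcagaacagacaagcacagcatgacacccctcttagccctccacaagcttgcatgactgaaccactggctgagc
Luzp2 peak, chr7:62165391-62165690: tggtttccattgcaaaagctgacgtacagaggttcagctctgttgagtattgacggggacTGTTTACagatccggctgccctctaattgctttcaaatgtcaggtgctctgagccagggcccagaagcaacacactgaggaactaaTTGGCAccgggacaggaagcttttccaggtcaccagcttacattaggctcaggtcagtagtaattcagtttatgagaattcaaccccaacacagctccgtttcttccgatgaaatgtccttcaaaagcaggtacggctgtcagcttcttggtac
Ednra peak, chr8:80294829-80295128: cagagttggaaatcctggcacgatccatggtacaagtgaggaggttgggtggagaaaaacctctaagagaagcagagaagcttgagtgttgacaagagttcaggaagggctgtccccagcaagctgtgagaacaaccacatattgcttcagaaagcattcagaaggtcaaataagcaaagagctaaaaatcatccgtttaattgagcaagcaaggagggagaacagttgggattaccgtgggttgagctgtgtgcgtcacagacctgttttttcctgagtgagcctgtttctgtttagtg
4931440P22Rik peak, chr3:65368105-65368404: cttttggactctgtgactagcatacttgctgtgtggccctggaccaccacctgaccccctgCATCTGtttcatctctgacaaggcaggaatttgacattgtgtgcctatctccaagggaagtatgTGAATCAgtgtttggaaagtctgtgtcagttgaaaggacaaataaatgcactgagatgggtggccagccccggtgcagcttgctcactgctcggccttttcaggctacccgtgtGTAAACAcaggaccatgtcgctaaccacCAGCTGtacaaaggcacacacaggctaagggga
Slc2a2 peak, chr3:28580907-28581206: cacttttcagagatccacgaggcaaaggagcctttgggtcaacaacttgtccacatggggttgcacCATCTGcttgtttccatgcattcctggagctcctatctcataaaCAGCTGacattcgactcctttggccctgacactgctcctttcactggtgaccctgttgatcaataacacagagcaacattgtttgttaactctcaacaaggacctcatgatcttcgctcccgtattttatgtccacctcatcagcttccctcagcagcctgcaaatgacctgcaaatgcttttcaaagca
Ins1 peak, chr19:52326892-52327191: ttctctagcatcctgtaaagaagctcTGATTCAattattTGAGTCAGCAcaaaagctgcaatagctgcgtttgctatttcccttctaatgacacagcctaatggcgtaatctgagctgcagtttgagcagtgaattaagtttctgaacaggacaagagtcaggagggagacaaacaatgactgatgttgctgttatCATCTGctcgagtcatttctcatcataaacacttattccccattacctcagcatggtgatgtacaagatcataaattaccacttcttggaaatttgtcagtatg
Rell1 peak, chr5:64297755-64298054: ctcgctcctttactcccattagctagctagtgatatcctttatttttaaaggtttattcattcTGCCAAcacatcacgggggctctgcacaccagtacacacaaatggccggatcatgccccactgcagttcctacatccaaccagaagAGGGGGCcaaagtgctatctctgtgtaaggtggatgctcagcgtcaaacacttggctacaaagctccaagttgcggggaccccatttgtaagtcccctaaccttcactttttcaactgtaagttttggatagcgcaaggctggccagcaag

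The printed sequences differed in which letters they held. The Rgs9 peak held 2 HNF1 matches and 1 E-box, the Unc5d peak held 2 E-boxes of the GC-centred form and 1 AP-1 match, and the Tle1 peak held none of the 12. The Luzp2 peak, which was more open in αTC1, held 1 forkhead and 1 NF1 match. The 4931440P22Rik peak held 4 matches, 2 of them E-boxes, with 1 AP-1 and 1 forkhead match. The Ednra peak held none. A match describes the letters only and shows no binding.

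The 10 libraries of the pure lines held between 4397851 and 10374903 reads in consensus peaks. Pearson's correlation of log2 values over all peaks ran from 0.92 to 0.972 within a line and from 0.452 to 0.585 between lines. The defining hormone and factor genes were found in the labelled lines: glucagon (Gcg) was at 12110, 12270 and 14410 FPKM in αTC1 and at 249.2, 266.9 and 172.2 FPKM in βTC6, and Pdx1 was at 104.4, 120.3 and 109.6 FPKM in βTC6 and listed at 0 in each αTC1 library. Replicate 5 of βTC6 stood apart on several chromosomes, most on chromosome 2. Its median promoter peak there was 0.34 lower on the log2 scale than the mean of βTC6 replicates 1 to 4, whose SD was 0.024, and the median distal peak on that chromosome differed by -0.28. The mixture with 10% αTC1 cells differed there by -0.24 from a weighted mean of the lines. Promoter peaks of replicate 5 also differed from replicates 1 to 4 by -0.17 on chromosome 11 and by 0.17, 0.18 and 0.19 on chromosomes 3, 16 and 18, and those of the mixture by -0.17 on chromosome 11 and 0.17 on chromosome 3. Counts are therefore also given without that library. On every chromosome used other than 9 and 11, the median distal peak had a higher log2 fold change than the median promoter peak.

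Distal peaks changed in both directions, more of them towards βTC6. In βTC6, 2621 distal peaks (12.6%) were more open, beside 12.9% of all consensus peaks. In αTC1, 1442 (6.94%) were more open, beside 5.38% of all consensus peaks, and 16714 were called in neither direction. A call required a Benjamini-Hochberg adjusted p under 0.05 from limma, fitted over all 65053 peaks on log2(normalized read count + 1), together with a log2 fold change past 2 in size. Fold changes are given as βTC6 relative to αTC1 throughout, so positive values mean more open in βTC6. The share of βTC6 calls was thus close to the background and that of αTC1 calls was above it, with no test of either difference. Without βTC6 replicate 5 the counts were 2574 and 1341. The counts depend on the model: edgeR on recovered reads called 4508 and 2296, DESeq2 4456 and 2391, and limma with a pseudocount of 5 called 398 and 307. The excess of βTC6 calls rests on the scaling: 64.5% of the calls were towards βTC6 with the deposited normalization, 44.2% after quantile normalization (1658 against 2094) and 80.3% after centering each chromosome on its promoter peaks (3700 against 905). That centering moved the median log2 fold change of all peaks to 0.29, from 0.0011. The libraries were made from bulk cells, so fewer cells with a site open and less opening per cell cannot be told apart.

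The distance rule sets where the described peaks begin and end. Just inside 10 kb from the TSS were peaks 10005 bp from 4932412D23Rik and 10006 bp from Psg-ps1, with log2 fold changes of -1.30 and 1.58. Just outside were 2 peaks at 10000 bp, from Ppp3r2 and Spink1, with 0.86 and 0.38. At the other end, peaks at 99999 bp from Gbe1 and 99993 bp from Fzd1 had 0.73 and 0.98, whereas those at 100011 bp from Map2k6 and 100017 bp from Pigk had 2.198 and -1.41. The deposited distances follow RefSeq, and 22.3% of the distal peaks lay within 10 kb of a TSS of the larger GENCODE vM1 annotation, 7.09% within 2 kb. Among the 16149 peaks beyond 10 kb by that annotation too, 13.2% were called towards βTC6 and 6.79% towards αTC1.

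The share of βTC6 calls was larger in each farther bin of the window and larger again beyond it. At 10 to 20 kb 9.84% of 5152 distal peaks were more open in βTC6, at 20 to 30 kb 12.03% of 3740, at 30 to 50 kb 13.2% of 5122, at 50 to 75 kb 13.8% of 4005, and at 75 to 100 kb 15.8% of 2758. The share of αTC1 calls did not follow this order. It was 6.68% at 10 to 20 kb, 7.58% at 30 to 50 kb and 5.80% at 75 to 100 kb. The median log2 fold change went from -0.08 in the nearest bin to 0.41 in the farthest. On the same chromosomes, 5.00% of promoter peaks within 1 kb were called towards βTC6 and 0.955% towards αTC1, and beyond 100 kb the shares were 21.1% and 4.07%. These shares are descriptions, with no test between bins.

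**Figure D1:**
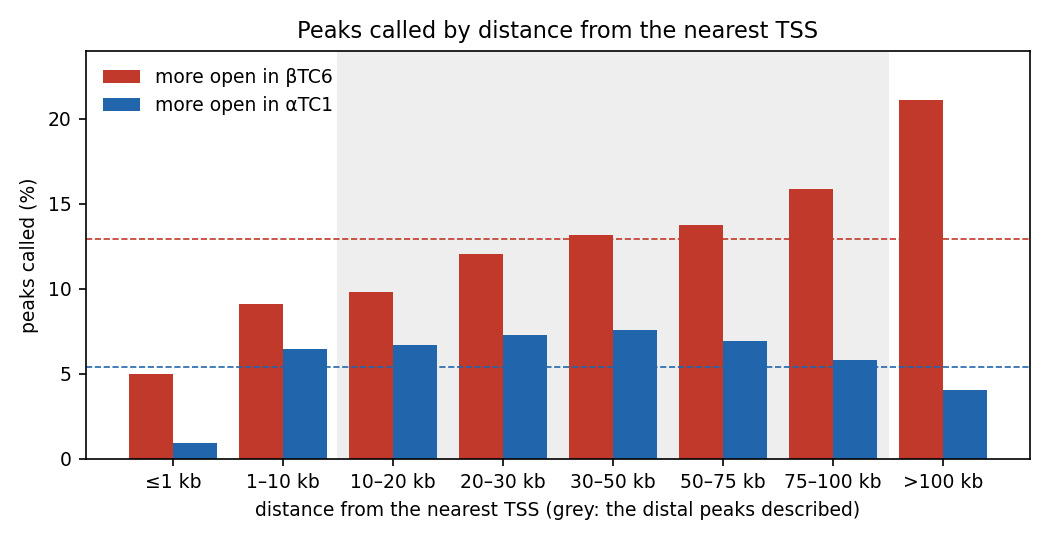
Percentage of peaks called more open in βTC6 (red) or αTC1 (blue) by distance from the nearest TSS, on the 16 autosomes used; dashed lines give the percentage over all 65053 consensus peaks. Red bars go from 9.84% at 10 to 20 kb to 15.8% at 75 to 100 kb, whereas blue bars stay between 5.80% and 7.58% in the shaded distances.

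Most distal peaks lay outside exons. By GENCODE vM1, 10113 centered in introns, 9802 between genes and 862 in exons. Intronic peaks were called more often than intergenic ones in both directions, 13.2% against 12.1% towards βTC6 and 7.95% against 5.86% towards αTC1, again without a test. Called peaks were wider, with medians of 615 bp for βTC6 and 650.5 bp for αTC1 against 495 bp for the rest. Their base composition differed: the median GC content was 44.5% in βTC6 peaks, 49.0% in αTC1 peaks and 47.5% in uncalled peaks. Calls also differed between chromosomes. On chromosome 7, 5.84% of distal peaks were called towards βTC6 and 10.4% towards αTC1, on chromosome 9 it was 12.3% for each, and on chromosome 5 it was 14.9% and 4.67%. The median log2 fold change of promoter peaks also differed between chromosomes, from -0.65 on chromosome 7 to 0.12 on chromosome 11, with -0.31 on chromosome 9 and -0.09 on chromosome 5, and its part in the calls was not tested.

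The strongest distal peaks of βTC6 were low in αTC1, and 1 of the 8 was at its floor. The first by moderated t lay in an intron of Rgs9, a regulator of G protein signaling, at chr11:109130712-109131761, 28258 bp from the TSS. Its normalized read counts were 73.6, 59.9, 63.8, 69.0 and 73.0 in βTC6 and between 0.1365 and 0.1503 in the 5 αTC1 libraries, which is 1 read each, the lowest value of each library. Every βTC6 library was far above every αTC1 library, and against a floor of 3 reads per library the peak was at least 159-fold higher in βTC6 (limma adjusted p = 5.36e-16). It sits in a stretch of chromosome 11 taken up again below.

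The next peak, in an intron of the netrin receptor gene Unc5d at chr8:30231989-30232870 and 97678 bp from its TSS, was at 73.8, 75.1, 68.9, 71.5 and 75.8 in βTC6 and at 3.64, 3.09, 3.46, 2.32 and 3.32 in αTC1. The groups did not overlap, and the log2 fold change was 4.16 ± 0.12 (SE, n = 5 per line, limma adjusted p = 1.44e-15). In an intron of Tle1, which encodes a Groucho-family corepressor, the peak at chr4:71820917-71821770 was at 55.9 or more in 4 βTC6 libraries and 53.8 in the lowest, and between 1.264 and 2.101 in αTC1. Its log2 fold change was 4.61 ± 0.14 (SE, limma adjusted p = 2.30e-15). It lay 40583 bp from the RefSeq start, but 8459 bp from a GENCODE start.

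A peak in an intron of Limch1, whose product acts on the actomyosin skeleton, was at 73.8 ± 5.23 (SD, n = 5) in βTC6 and 3.45 ± 0.839 in αTC1. In an intron of Wls, which carries Wnt proteins to the cell surface, the peak 12323 bp from the TSS was at 70.6, 75.1, 62.8, 68.2 and 63.6 in βTC6, against 2.02 to 3.79 in αTC1, a log2 fold change of 4.16 ± 0.14 (SE, limma adjusted p = 6.53e-15). Wls was also expressed more in βTC6, at 74.5 ± 3.47 FPKM against 2.44 ± 0.251 (SD, n = 3). The peaks nearest to 4933430M04Rik, Gm5136 and Klhl29 completed the 8, with log2 fold changes of 4.26, 3.69 and 3.34. The peak assigned to Gm5136 lay inside an intron of Syt1, a calcium sensor of vesicle release, which shows how the nearest start can differ from the host gene. In none of the 8 did any αTC1 library reach any βTC6 library, which follows from choosing them by moderated t on these same libraries.

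The strongest distal peaks of αTC1 were low in βTC6 but above the floor of 3 reads in each library. In an intron of Luzp2, a leucine zipper protein gene, the peak at chr7:62165082-62165998, 74925 bp from the TSS, was at 71.0, 70.0, 69.9, 68.1 and 65.9 in αTC1 and at 4.97, 4.10, 5.54, 6.14 and 4.41 in βTC6. The lines were well apart, with a log2 fold change of -3.55 ± 0.11 (SE, n = 5 per line, limma adjusted p = 4.41e-15). Luzp2 itself was at 17.5 ± 1.81 FPKM in αTC1 and 0.220 ± 0.0866 in βTC6 (SD, n = 3). Upstream of Ednra, the endothelin A receptor gene, the intergenic peak at chr8:80294456-80295500 was at 103.2, 96.1, 111.1, 113.4 and 105.9 in αTC1, against 9.11 to 13.9 in βTC6, a log2 fold change of -3.10 ± 0.11 (SE, limma adjusted p = 8.34e-15). A start of another GENCODE transcript lay 6720 bp away.

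The peak in an exon of Dhx30, an RNA helicase gene, averaged 66.5 ± 8.70 in αTC1 and 2.99 ± 0.767 in βTC6 (SD, n = 5), and Dhx30 was at 38.7 against 19.6 FPKM, a change that did not pass the fold threshold. It lay 3107 bp from a GENCODE start. Upstream of Sfmbt2, a Polycomb-group gene, the peak 79966 bp from the TSS was at 81.2, 66.6, 78.3, 77.9 and 64.3 in αTC1, against 2.27 to 4.71 in βTC6 (log2 fold change -4.13 ± 0.15, SE, limma adjusted p = 2.21e-14). The peak in an intron of Fam189a1 had the largest fold of the 8, at -4.28 ± 0.16 on the log2 scale. The remaining peaks, near 4931440P22Rik, Fam26f and Zfp217, had log2 fold changes of -3.47, -2.54 and -4.13. The Fam26f peak was the most open of the 8 in the low line, between 16.9 and 22.6 in βTC6 against 102.6 to 127.7 in αTC1. In all 8 the libraries of the lines did not overlap, which again follows from how the peaks were chosen.

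**Figure D2:**
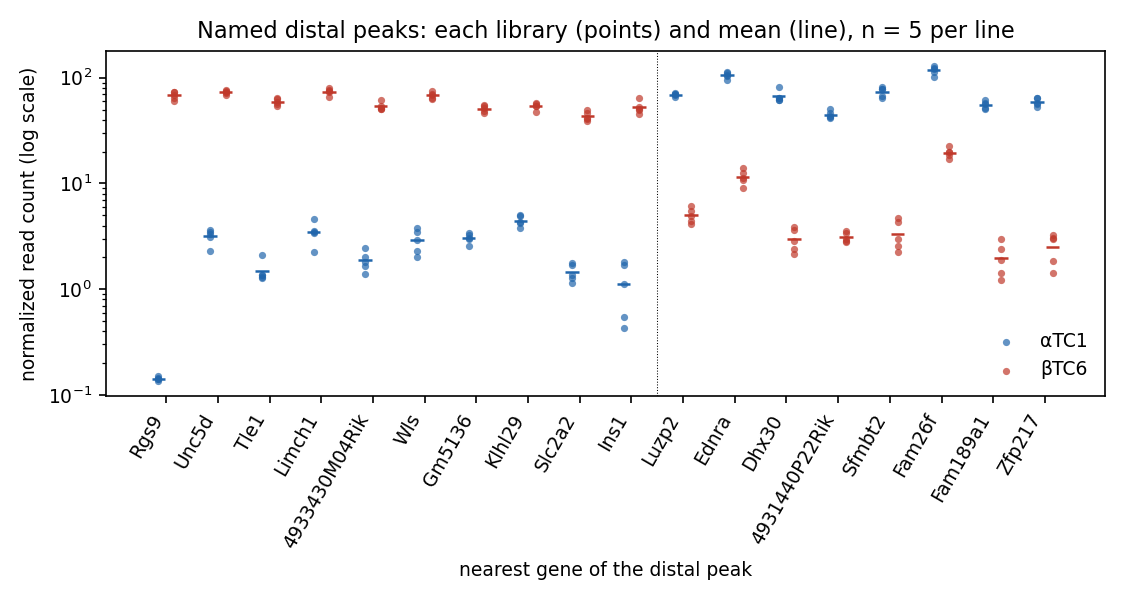
Normalized read count (log axis) of the 8 strongest distal peaks per direction and of the Slc2a2 and Ins1 peaks, named by nearest gene; points are libraries (5 per line) and short lines are means. The peaks were chosen for the separation of these libraries, so αTC1 (blue) and βTC6 (red) do not overlap at any of them. The αTC1 libraries at Rgs9 sit at 1 read each.

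Over all called distal peaks, the low line was seldom empty. The median log2 fold change was 2.47 for βTC6 calls and -2.44 for αTC1 calls, and 512 and 267 of them were past 3 in size. All 5 αTC1 libraries were at or under 3 reads at 89 of the 2621 βTC6 peaks (3.396%), and all 5 βTC6 libraries at 7 of the 1442 αTC1 peaks (0.485%). In the line where they were open, the called peaks had a median normalized read count of 12.7 in βTC6 and 17.2 in αTC1.

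In αTC1, 39 of the βTC6 peaks were at 1 read in all 5 libraries, and 23 of these lay in a single stretch of chromosome 11, between 108459224 and 110743145, with 12 nearest genes, Rgs9 among them. A second, much shorter cluster lay inside the gene Scg5, which encodes the chaperone 7B2 of the prohormone convertase PC2. There, 3 peaks between chr2:113650841 and chr2:113656894 were at 1 read in every αTC1 library. The strongest of them was at 44.2, 52.5, 40.1, 51.1 and 13.6 in βTC6 replicates 1 to 5, the last value being under the other 4 by more than their range. The peak was at 11.03 in the mixture with 10% αTC1 cells and at 6.14 in the equal mixture. Scg5 was expressed in both lines, at 260.9 ± 5.04 FPKM in αTC1 and 446.9 ± 69.8 in βTC6 (SD, n = 3), a log2 fold change of 0.84 that did not pass the fold threshold. Why these places held no more than 1 read was not tested.

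Some genes had several called distal peaks, in 1 direction or in both. The 20777 peaks had 7718 nearest genes, with a median of 2 peaks each, and 2827 of the genes had at least 1 called peak. Of the 827 genes with at least 2, 437 had only βTC6 calls, 184 only αTC1 calls and 206 had both. Neighboring peaks share a chromosome segment and are not independent of each other.

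The longest βTC6 run was at Kcnip4, which encodes an interacting protein of voltage-gated potassium channels. It had 21 distal peaks, the most of any gene, and 8 were called, each towards βTC6, with log2 fold changes from 2.11 to 3.30. Kcnip4 expression differed less, at 2.54, 2.52 and 1.77 FPKM in αTC1 and 5.81, 3.92 and 6.21 in βTC6 (log2 fold change 1.09 ± 0.21, SE). Egfr, the epidermal growth factor receptor gene, had 6 of 12 peaks called towards βTC6, 43972 to 69288 bp away, with log2 fold changes from 2.42 to 3.17. It was listed at 0 FPKM in each αTC1 library and was at 27.6, 15.5 and 17.8 in βTC6, and its promoter peak had a log2 fold change of 3.15. Lin7a (scaffold protein), Flrt2 (cell adhesion and guidance) and Rnf150 (a RING finger protein) had 6 called peaks each out of 13, 9 and 7, all towards βTC6. Their transcripts were at 2.41 to 3.31, 1.41 to 2.17 and 1.88 to 2.76 FPKM in βTC6 and at 0.12 FPKM or less in αTC1.

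The runs towards αTC1 were shorter. Lpl, the lipoprotein lipase gene, had 4 of 9 peaks called, 22612 to 73478 bp away, and its expression followed in the same direction, at 337.3, 357.8 and 362.3 FPKM in αTC1 and 13.97, 15.76 and 15.19 in βTC6. Zfp217 (a zinc finger protein) and Asap2 (an Arf GTPase activator) also had 4, of 9 and 7, and their transcripts had log2 fold changes of -2.43 and -1.36. Tomm20, a receptor of mitochondrial protein import, had 4 of 10 peaks called, yet was at 116.3 to 122.1 FPKM in αTC1 and 103.5 to 117.3 in βTC6, overlapping ranges.

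Among the lists of genes drawn up for islet biology, distal peaks of beta-cell genes had the largest share of βTC6 calls. Of 81 peaks near 16 of the 25 beta-cell genes, 26 were called towards βTC6 (32.1%, beside 12.9% of all peaks) and 5 towards αTC1 (6.17%, beside 5.38%), and their median log2 fold change was 1.37 beside 0.0011 over all peaks. The list was not drawn up blind to these data, and includes Egfr, which the paper names among the top βTC6 genes. Egfr gave 12 of the 81 peaks and 6 of the 26 calls, so the share is no independent result. Near Slc2a2, the glucose transporter GLUT2, the peak 15769 bp upstream at chr3:28580667-28581445 was at 41.6, 40.6, 38.7, 46.1 and 49.4 in βTC6 and between 1.16 and 1.77 in αTC1 (log2 fold change 4.18 ± 0.15, SE, n = 5 per line, limma adjusted p = 1.84e-14). Near Ins1, an insulin gene, the peak 11771 bp upstream at chr19:52326557-52327526 was at 49.0, 53.1, 50.5, 45.4 and 64.5 in βTC6 and between 0.433 and 1.80 in αTC1 (log2 fold change 4.70 ± 0.19, SE, limma adjusted p = 8.86e-14). These are the sequences printed above. Peaks near Nkx6-1 (a beta-cell homeobox factor), Ucn3 (urocortin 3, a marker of mature beta cells), Egfr and Bmp5 had log2 fold changes of 3.91, 3.02, 3.17 and 2.31. Nkx6-1 was at 13.8 FPKM in αTC1 and 60.7 in βTC6. Ucn3 was listed at 0 in αTC1 and was at 0.827 in βTC6, and Bmp5 was listed at 0 in both, so neither was tested. The Bmp5 peak lay 9344 bp from a GENCODE start.

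The peaks of this list that were more open in αTC1, a share near that of all peaks, included some where the mean FPKM of the gene was higher in βTC6. The peak in an intron of Abcc8, the sulfonylurea receptor of the KATP channel, was at 30.5, 27.1, 33.5, 26.75 and 26 in αTC1 and 5.68, 6.15, 6.49, 5.85 and 7.60 in βTC6, a log2 fold change of -2.02 ± 0.13 (SE, limma adjusted p = 3.34e-11), just past the threshold. Without αTC1 replicate 1, αTC1 replicate 3, βTC6 replicate 1 or βTC6 replicate 4 it was -1.995, -1.962, -1.984 and -1.993, respectively, and the call was lost. Abcc8 was at 81.8 FPKM in αTC1 and 167.6 in βTC6, which did not pass the fold threshold. The peak nearest to G6pc2, an islet glucose-6-phosphatase gene, lay in an intron of the neighboring gene Abcb11, at 46.6 ± 6.23 in αTC1 and 8.997 ± 4.07 in βTC6 (SD, n = 5), with βTC6 libraries from 3.94 in replicate 5 to 15.1 in replicate 4. It lay 1888 bp from a GENCODE start. G6pc2 was at 33.7 FPKM in αTC1 and 791 in βTC6. Trpm5, a cation channel gene, gave a peak at -2.48 and was at 1.90 against 14.6 FPKM. That peak lay 90 bp from a GENCODE start. Under 2 of the alternative settings described at the end it lost its call, at 1.671 and 1.816 in size. The G6pc2 peak also lost its call under 2 settings, at 1.923 and 1.968 in size.

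Of 37 distal peaks near 12 of 22 alpha-cell genes, 3 were called towards βTC6 (8.11%, beside 12.9% of all peaks) and 1 towards αTC1 (2.70%, beside 5.38%), with a median log2 fold change of 0.24. The called peak nearest to Gcg, 27022 bp downstream of its TSS at chr2:62294307-62295069, was more open in βTC6, at 16.9, 14.4, 12.2, 12.7 and 9.39 against 3.78, 1.41, 1.65, 1.36 and 1.59 in αTC1 (log2 fold change 2.29 ± 0.23, SE, limma adjusted p = 2.24e-08). The lines did not overlap, in the direction opposite to Gcg expression. The call was lost under 2 of the alternative settings described at the end, at 1.377 and 1.93. The peak lay 17 bp from the start of a GENCODE transcript of Gm13561. A peak near Gc, the vitamin D-binding protein gene, was called towards βTC6 at 2.16, or at 1.953 and not called without αTC1 replicate 1, and Gc was listed at 0 FPKM in αTC1 and was at 9.51 in βTC6. Upstream of Pcsk2, the proglucagon-processing convertase PC2, a peak at 8.42 ± 1.73 in αTC1 and 1.41 ± 0.755 in βTC6 was called at -2.003, just past the threshold. Without αTC1 replicate 1, αTC1 replicate 3, βTC6 replicate 2 or βTC6 replicate 5 its log2 fold change was -1.935, -1.935, -1.916 and -1.882, respectively, and the call was lost.

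Peaks near islet transcription factors were called in both directions. Of 99 peaks near 23 of 35 genes, 12 were called towards βTC6 (12.1%, beside 12.9% of all peaks) and 8 towards αTC1 (8.08%, beside 5.38%), with a median log2 fold change of -0.06. A peak near Isl1, a LIM homeobox factor of all islet endocrine cells, was at 36.1, 32.0, 35.8, 38.2 and 43.1 in βTC6 and 5.74, 3.23, 1.954, 4.91 and 7.37 in αTC1 (log2 fold change 2.84 ± 0.21, SE), whereas Isl1 transcripts were at 213.2 FPKM in αTC1 and 135.6 in βTC6, a change that did not pass the fold threshold. Near Pax6, a paired homeobox factor of endocrine cells, a peak inside an intron of Elp4 was at 13.8, 10.5, 10.3, 13.8 and 4.79 in βTC6 and between 0.1405 and 0.601 in αTC1. Its lowest βTC6 value came from replicate 5, the library that stood apart most on this chromosome. Peaks near Rfx6, Foxp4 and Glis3 had log2 fold changes of 2.52, 3.20 and 2.69. Towards αTC1, peaks near Tox3, Mnx1, Insm1, Foxo1 and Lmx1b had log2 fold changes of -3.41, -2.23, -2.22, -2.06 and -2.54. The Foxo1 peak was at -1.87 without βTC6 replicate 5 and lost the call. Mnx1 and Insm1, homeobox and zinc finger factors of endocrine cells, had transcripts at 0.0600 and 7.11 FPKM in αTC1 and 11.6 and 51.7 in βTC6, opposite to those peaks.

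Of 85 peaks near genes of type 2 diabetes and fasting glucose loci, 10 were called towards βTC6 (11.8%, beside 12.9% of all peaks) and 12 towards αTC1 (14.1%, beside 5.38%), with a median log2 fold change of 0.02. Towards βTC6, peaks near Bcl11a, Tspan8, Dgkb, Mtnr1b (a melatonin receptor), Rreb1 and Glis3 had log2 fold changes from 2.08 to 4.06, and towards αTC1 peaks inside introns of Thada, Cdkal1, Fto, Igf2bp2 and Adcy5 were at -3.48, -2.84, -3.18, -2.55 and -2.35. The peaks near Bcl11a, Rreb1, Mtnr1b and Glis3 lay 3735, 3746, 6580 and 8427 bp from a GENCODE start. The peak assigned to Mtnr1b was inside an intron of Fat3, 89846 bp from the Mtnr1b TSS, and Mtnr1b was listed at 0 FPKM in both lines. The Mtnr1b peak lost its call without αTC1 replicate 4, at 1.99. The transcripts of Thada, Cdkal1 and Fto did not pass the fold threshold, at 6.59, 10.1 and 26.3 FPKM in αTC1 and 4.96, 6.15 and 28.8 in βTC6. For hormone secretion machinery 8 and 6 of 79 were called (10.1% and 7.59%), with Scg5, Syt9 and Syt13 towards βTC6 and Sytl2, Syt7, Cplx2 and Chga towards αTC1. Sytl2, a Rab27 effector on secretory granules, changed in expression as well, at 40.7 FPKM in αTC1 and 0.157 in βTC6. Cplx2, a regulator of vesicle fusion, changed in the direction opposite to its peak, at 9.56 FPKM in αTC1 and 65.8 in βTC6. The granule protein gene Chga was at 791.5 and 2057 FPKM, and Syt7, a calcium sensor of exocytosis, at 65.7 and 47.7 FPKM, neither of which passed the fold threshold.

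For axon guidance and adhesion genes, 23 of 126 distal peaks were called towards βTC6 (18.3%, beside 12.9% of all peaks) and 6 towards αTC1 (4.76%, beside 5.38%), with a median log2 fold change of 0.96. Beside Unc5d, peaks in introns of the ephrin gene Efna5 and the semaphorin gene Sema3c were at 3.98 ± 0.16 and 3.63 ± 0.15 (SE), and those near Nlgn1, Dscam and Robo1 at 2.71, 3.48 and 2.43. The transcripts of Sema3c, Nlgn1 and Dscam were higher in βTC6, while Robo1 went the other way, at 7.69 FPKM in αTC1 and 2.27 in βTC6 without passing the fold threshold. Towards αTC1, peaks near Sema6a and the netrin receptor gene Unc5c were at -3.13 and -2.16.

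Lists of other cell types held few distal peaks. For delta, PP and epsilon cells 2 of 14 peaks were called towards βTC6 (14.3%) and 1 towards αTC1 (7.14%), beside 12.9% and 5.38% of all peaks. The delta-cell hormone gene Sst had a peak 56878 bp from its TSS at 41.2, 39.4, 43.8, 44.9 and 63.3 in βTC6 and between 6.76 and 9.80 in αTC1, and Sst was at 255.6 ± 61.9 FPKM in βTC6 and listed at 0 in αTC1. The peak near Ghsr, the ghrelin receptor gene, was more open in αTC1, at -2.90. None of 9 peaks near acinar and duct genes was called. Of 16 near stromal, endothelial and immune genes, 2 were more open in βTC6 (12.5%), near Kdr and Emcn, whose transcripts were at 0.00333 FPKM or listed at 0 in both lines. The Kdr peak lost its call without αTC1 replicate 5, βTC6 replicate 1 or βTC6 replicate 5, at 1.84, 1.975 and 1.90, and the Emcn peak without βTC6 replicate 5, at 1.96.

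The motif letters in the central 200 bases differed between the called groups. The homeodomain core was in 13.9% of the 2621 βTC6 peaks, 3.95% of the 1442 αTC1 peaks and 7.26% of the uncalled ones, beside 6.93% of all consensus peaks. The HNF1 letters, which overlap in part with TAATTA, were in 18.1%, 5.41% and 9.06%, beside 8.88%. Of the distal peaks, 385 held both sets of letters. The E-boxes went the other way. CAGATG, the form that NeuroD1 and other basic helix-loop-helix factors bind, was in 44.3% of αTC1 peaks, 22.3% of βTC6 peaks and 27.3% of the uncalled, beside 23.2% of all peaks, and CAGCTG in 31.5%, 15.2% and 19.2%, beside 17.2%. The printed Unc5d and Slc2a2 peaks, both more open in βTC6, hold E-boxes too, so the letters do not divide the peaks cleanly.

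The other motifs differed by fewer percentage points, though as a ratio DR1 differed as much as the E-boxes. The DR1 letters were in 4.35% of βTC6 and 2.15% of αTC1 peaks (2.77% of all), GATA in 14.7% and 10.6% (10.6%), and RFX in 4.46% and 3.47% (3.46%). NF1 was in 12.2% and 17.1% (11.3%), AP-1 in 12.2% and 15.2% (10.6%), MAF in 5.23% and 6.45% (4.86%) and forkhead in 8.28% and 8.81% (6.31%). In uncalled distal peaks these 4 were in 12.6%, 12.65%, 5.49% and 7.485%, and DR1, GATA and RFX in 2.97%, 11.6% and 3.70%. The CTCF core was less frequent in called peaks, at 1.98% and 2.43% against 4.78% of uncalled ones, beside 5.33% of all peaks. GC content differs between the groups, as given above. Among peaks of 40 to 50% GC (1465 towards βTC6, 684 towards αTC1 and 8228 uncalled) the shares were 14.1%, 4.82% and 8.24% for the homeodomain core, 19.3%, 7.89% and 10.1% for HNF1, 23.4%, 45.9% and 29.3% for CAGATG and 15.6%, 25.3% and 16.5% for CAGCTG. Widths differed as well, although the window searched was the same. No test was made of these shares.

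**Figure D3:**
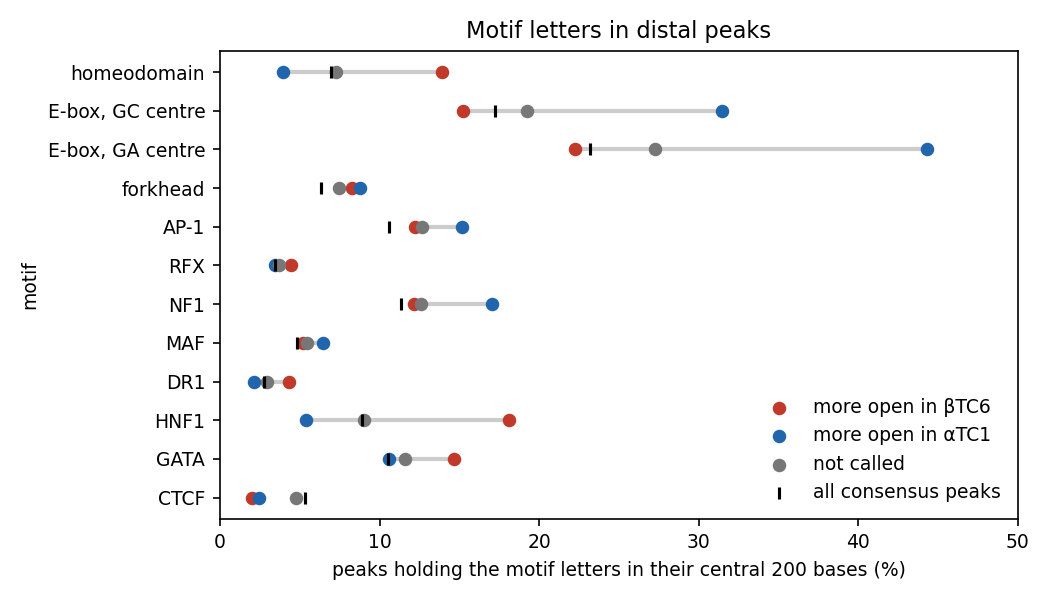
Percentage of distal peaks with the letters of each motif in their central 200 bases, for peaks more open in βTC6 (red), more open in αTC1 (blue) and called in neither direction (grey), with all consensus peaks as black ticks. The E-boxes lie to the right for αTC1 (up to 44.3%) and the homeodomain and HNF1 letters to the right for βTC6 (13.9% and 18.1%).

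Over the whole library, distal peaks held about the same share of reads in both lines. Of the normalized reads in consensus peaks on the 16 autosomes, 27.8% ± 0.661 (SD, n = 5) fell in distal peaks in αTC1 and 28.4% ± 0.306 in βTC6. The libraries were at 28.0, 27.6, 27.9, 26.9 and 28.7% in αTC1 and at 28.2, 28.8, 28.5, 28.0 and 28.4% in βTC6, and these ranges overlap. The difference of 0.578 percentage points did not pass an exact two-sided permutation test (p = 0.111; the smallest p possible with 5 against 5 is 0.00794). Without αTC1 replicate 5, the highest of its line, it was 0.806 points with p = 0.0159 in the same exact test, so the outcome rests on that library. Without αTC1 replicate 4, the lowest of its line, it was 0.349 points, and over all autosomes 0.0521. Relative to promoters the lines did separate: the median log2 value of distal peaks was below that of promoter peaks by 2.19 ± 0.126 in αTC1 and 1.67 ± 0.0875 in βTC6 (SD, n = 5; difference 0.53, exact permutation p = 0.00794, the smallest possible). For the uncalled peaks the mean and the median differed in direction. Distal peaks called in neither direction averaged 11.5 ± 0.629 normalized reads in αTC1 and 9.70 ± 0.226 in βTC6 (SD, n = 5), and every αTC1 library was above every βTC6 library. Their median level was 5.58 in αTC1 and 5.88 in βTC6, and their median log2 fold change was -0.02.

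The distal peak with the highest mean among those not called lay near the start of the chromosome 9 assembly, at chr9:3024057-3024745, 14342 bp from Mir101c. It lay 854 bp from a GENCODE start and was at 530.4, 557.9 and 556.7 in αTC1 replicates 1 to 3 and at 5423 and 4359 in replicates 4 and 5, and in βTC6 at 344.7, 472.8 and 347.0 and then 2365 and 1280. In both lines replicates 4 and 5 were far above replicates 1 to 3, and within each of these sets the αTC1 libraries were above the βTC6 libraries. Only 25 distal peaks had a mean over 200 normalized reads in either line. A more typical shared site was the printed peak 62232 bp from Rell1, at 11.2, 16.3, 15.6, 16.2 and 10.98 in αTC1 and 12.3, 11.7, 15.7, 12.1 and 10.9 in βTC6, with overlapping lines and a log2 fold change of -0.14 ± 0.15 (SE, limma adjusted p = 0.390).

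The mixtures, which played no part in the calls, tracked the called distal peaks. The mean normalized read count over the 1442 αTC1 peaks went from 2.97 ± 0.343 in pure βTC6 through 5.41 at 10% αTC1 cells, 13.4 at 50% and 22.3 at 90% to 22.5 ± 1.19 in pure αTC1 (SD, n = 5). Over the 2621 βTC6 peaks it went from 1.64 ± 0.0658 in pure αTC1 through 2.58 at 10% βTC6 cells, 8.32 at 50% and 15.4 at 90% to 15.8 ± 0.910 in pure βTC6. Across the 9 mixtures Pearson's r with the percentage of cells was 0.997 for αTC1 peaks and 0.993 for βTC6 peaks, and Spearman's rho was 1 for each (exact permutation p = 5.51e-06 for every one of these, as for the Benjamini-Hochberg value over the 2 Pearson tests). Over the 7 inner mixtures r stood at 0.994 and 0.995, with an exact permutation p of 0.000397 each.

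Levels were not exactly those of a weighted mean. Compared with a weighted mean of the pure lines, αTC1 peaks were above it in each mixture, by a ratio of 1.04 to 1.21, and βTC6 peaks were below it in 8 of 9, at ratios down to 0.796 with 20% βTC6 cells, and at 1.07 with 90%. With 1 library per mixture these offsets have no replicate check. Single peaks tracked the mixtures as well, with a median r over the 9 mixtures of 0.921 for both sets, given as a description since all peaks share the same libraries. At 10% αTC1 cells, 939 of the 1442 αTC1 peaks were above all 5 pure βTC6 libraries (65.1%), and at 20% it was 88.0%. At 10% βTC6 cells, 1234 of the 2621 βTC6 peaks were above all pure αTC1 libraries (47.1%), and at 20% it was 71.3%. At 50% of either line the shares were 99.5% and 97.9%. The peaks of a mixture come from 1 library and are not independent, so no interval is given. The peaks were called because the pure libraries of the other line were low there. No matching share over uncalled or all peaks was computed, so these shares are not rates of detection.

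**Figure D4:**
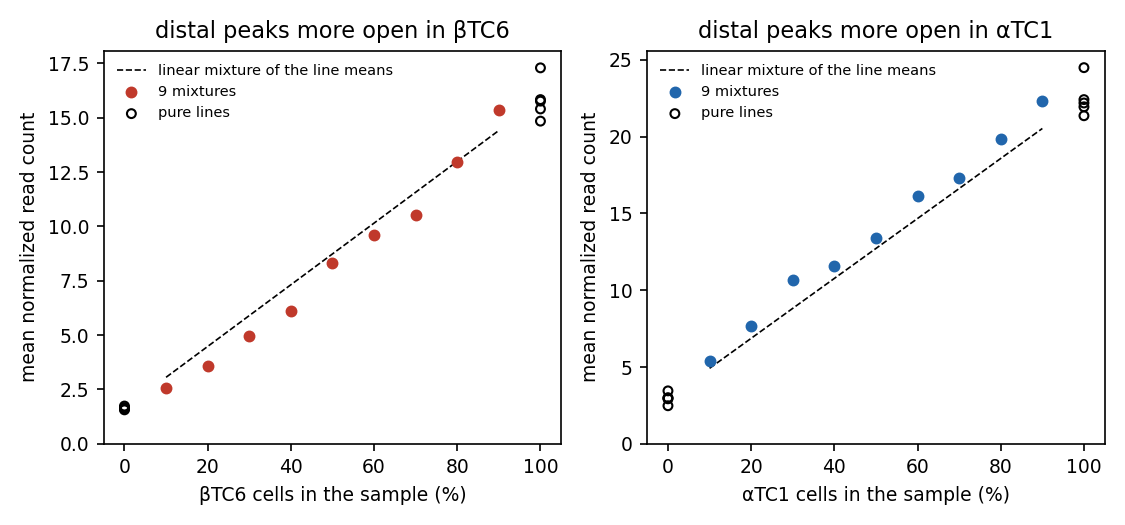
Mean normalized read count over the distal peaks called more open in βTC6 (left) and αTC1 (right) against the percentage of cells of that line; filled points are the 9 mixtures, open points the 5 libraries of each pure line, and the dashed line a weighted mean of the pure lines. The αTC1 peaks lie above the dashed line in each mixture and the βTC6 peaks below it up to 80% βTC6 cells.

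The strongest peaks had these values in the mixtures. The Rgs9 peak was at 2.24, 28.5 and 65.6 with 10, 50 and 90% βTC6 cells, and the Unc5d peak at 7.11, 30.8 and 72.2. The Luzp2 peak was at 15.9, 35.5 and 55.9 with 10, 50 and 90% αTC1 cells, and the Ednra peak at 21.9, 61.8 and 96.3. Each was highest where the line in which it was called made up 90% of the cells. The Pax6 peak was at 0.203, 2.34 and 6.72 with 10, 50 and 90% βTC6 cells, where 4 of the 5 pure βTC6 libraries were at 10.3 or more.

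Genes nearest to called distal peaks were more often called higher in the line where the peak was open than in the other line. Of the 2621 βTC6 peaks, 1562 had a nearest gene that could be tested in RNA-seq, and 31.3% of those had a gene called higher in βTC6 and 1.66% a gene called higher in αTC1, beside 10.2% and 4.08% of all genes tested. Of the 1442 αTC1 peaks, 893 had a tested gene, called higher in αTC1 for 15.3% and in βTC6 for 4.70%. For uncalled distal peaks the shares were 14.8% higher in βTC6 and 4.64% higher in αTC1. The median log2 fold change of the nearest gene was 0.71 beside βTC6 peaks, -0.44 beside αTC1 peaks and 0.11 beside the rest. Genes were called with edgeR's quasi-likelihood test at the thresholds used for peaks, among 12195 genes. Several peaks can share a gene, and no test was made of these shares.

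Across the distance window the concordant share changed little for βTC6 peaks, from 32.3% at 10 to 20 kb to 28.4% at 75 to 100 kb. For αTC1 peaks it was 18.2% at 10 to 20 kb, 11.7% at 30 to 50 kb, 18.5% at 50 to 75 kb and 11.5% at 75 to 100 kb, with no order. Promoter peaks on the same chromosomes had far higher shares, 85.6% of the 327 βTC6 promoter peaks with a tested gene and 61.7% of the 60 αTC1 ones, and peaks beyond 100 kb had lower ones, 26.52% and 11.03%.

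Genes with more called distal peaks had larger differences in expression. Counted once each, the 3257 tested genes with no βTC6 peak had a median log2 fold change of -0.02, the 821 with 1 peak 0.37, the 191 with 2 peaks 0.83, the 61 with 3 peaks 1.32 and the 39 with 4 or more 2.85. The shares called higher in βTC6 were 10.0, 23.3, 29.3, 44.3 and 59.0%. By number of αTC1 peaks the medians were 0.15, -0.26, -0.39, -1.65 and -1.74 over 3679, 542, 105, 32 and 11 genes, and the shares called higher in αTC1 were 3.10, 9.96, 11.4, 40.6 and 45.5%. The last group is small and includes 1 gene called higher in βTC6.

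**Figure D5:**
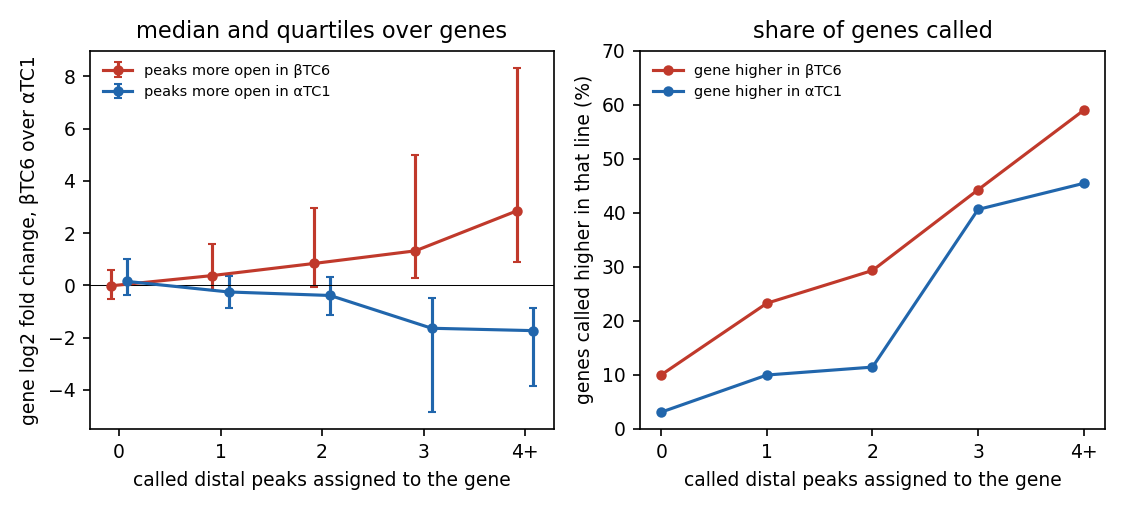
Left, median log2 fold change (βTC6 over αTC1) of tested genes by the number of distal peaks called more open in βTC6 (red) or αTC1 (blue), with bars from the lower to the upper quartile over genes; right, percentage of those genes called higher in that line. The red medians go from -0.02 with no called peak to 2.85 with 4 or more, and the blue ones from 0.15 to -1.74.

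Promoter peaks of genes with called distal peaks were called in a minority of cases. Of 1694 genes with βTC6 calls only, 1083 had a promoter peak, called more open in βTC6 for 16.3% and in αTC1 for 0.277%. Of 927 genes with αTC1 calls only, 587 had a promoter peak, called towards αTC1 for 2.73% and towards βTC6 for 2.04%. For genes with no called distal peak the shares were 6.16% and 0.817%. The median promoter log2 fold changes were 0.02, -0.50 and -0.29 for genes with βTC6 calls only, with αTC1 calls only and with none.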

How the data were processed

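ATAC-seq was measured in 5 libraries of each line and 9 mixtures, and RNA-seq in 3 libraries of each line. Versions are those in the submitters' processing notes. For ATAC-seq the authors used Trimmomatic 0.32 to trim and BWA 0.7.9a to align to mm9, removed duplicates with Picard 1.95, called peaks with MACS2 2.1.0, merged them over all libraries with DiffBind 2.2.5 and assigned the nearest gene with HOMER 4.6. The deposited ATAC-seq signal is a read count per consensus peak scaled by the authors with TMM factors. The deposited expected counts and FPKM values came from the authors' run of RSEM 1.2.12 after Trim Galore 0.40 and Bowtie2 2.23. The peak table also holds the authors' own classes of differential and signature peaks, which were not used, and 0 columns of values that no sample matched.

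Dividing by each library's lowest value gave whole reads for 100% of ATAC-seq values (within 0.01). No value is 0, so 1 read cannot be told from none, and the floor was set at 3 reads per library. Peaks were tested with limma 3.58.1 (with trend) in R 4.3.3 on log2(value + 1), which understates changes of weak peaks, where the study used a count model. Genes were tested with edgeR 4.0.16 (quasi-likelihood) after rounding the expected counts, with TMM in place of the study's spike-in scaling, among the 12195 genes whose FPKM reached 1 in each library of either line (library totals 21795366 to 25876764). Alternatives, among them DESeq2 1.42.0, other pseudocounts, scalings and left-out libraries, are given at the end. Exact tests and letter counts used Python 3.11.15 with pandas 2.3.3, numpy 2.4.6, scipy 1.17.1 and statsmodels 0.14.6, and plots matplotlib 3.10.9. Genome sequence and GENCODE vM1 were of the build of the files. Of the 7718 nearest genes, 6322 matched the RNA-seq table by symbol, 385 through RefSeq identifiers and 1011 not at all. The scripts were tested on simulated data.

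The peaks, gene lists and tests were chosen with earlier results of these data known. Named were the 8 called peaks per direction with the largest moderated t, at most 1 per nearest gene. For each gene of the 9 lists the strongest called peak was named, up to 6 per list and direction, then the 5 genes per direction with the most called peaks, and the uncalled peak with the highest mean. A gene that this rule names is not reported here. The Rell1 peak, and the peaks that were at 1 read, were added after their values were seen.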

Additional observations from a re-analysis of the deposited data

Results flagged for a closer look

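In 160 groups of 5 libraries (both lines at the 76 named peaks and for 4 measures of whole libraries), 12 held a library whose gap to the nearest other, divided by the range of the group, was over 0.71, Dixon's critical value. Chance gives about 1 in 20. No explanation was tested. In αTC1, replicate 1 was high at the Tle1 peak (2.101 normalized reads), the Gcg peak (3.78) and the Sema3c peak (4.76), and low at the Egfr peak (2.24). Replicate 2 was high at the Foxp4 peak (2.67). Replicate 5 was high at the peaks near Dhx30 (81.9), Mnx1 (20.9) and Chga (9.39) and low at the Lmx1b peak (5.63). In βTC6, each such library was replicate 5, which was high at the Sst peak (63.3) and the Emcn peak (14.4) and low at the Foxo1 peak (3.66). At each of these 12 peaks, all of them called on the same libraries, the libraries of the lines did not overlap.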

How the results depend on the processing

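Calls depended on the pseudocount, the scaling and the test model. The 2621 distal peaks more open in βTC6 became 398 with a pseudocount of 5, 1658 after quantile normalization, 4508 with edgeR and 4456 with DESeq2 on recovered reads. The 1442 more open in αTC1 became 307, 2094, 2296 and 2391 under the same settings and 905 after centering each chromosome. A larger pseudocount shrinks the folds of weak peaks by its construction; the cause of the other shifts was not tested. Leaving out 1 library gave 2574 to 2670 and 1341 to 1528. Chosen after the data were seen, the peaks also over 10 kb from every GENCODE start gave 2128 and 1096. Same-numbered libraries of the lines deviated with r from -0.0019 to 0.069, the highest being for replicates 5, and differently numbered ones with r from -0.0597 to 0.0269. Whether the numbers mark a pairing was not tested. Replicates 4 and 5 of both lines did share a high repeat peak, and replicates 1 to 3 alone gave 2534 and 1262 calls, replicates 4 and 5 alone 2920 and 1806. With a replicate block the counts were 2621 and 1442, and not every library correlated best with its own number.

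The read share difference of 0.578 points was 0.349 to 0.806 without 1 library, and as a median log2 difference from promoters it was 0.53 (exact permutation p = 0.00794). Over uncalled peaks alone it was -1.21, a set that the calls themselves define, so no test is given. A replicate block gave an exact permutation p of 0.188. Over all autosomes it was 0.0521, and without peaks over 200 normalized reads, added later, 0.368. The nearest gene was called higher in βTC6 for 33.7% of βTC6 peaks without the FPKM filter and 37.8% with a pseudocount of 5 (31.3% before), and in αTC1 for 22.01% of αTC1 peaks with that pseudocount (15.3% before). With the replicate block in the gene test these were 31.3% and 15.8%. Mixture correlations kept their direction under each setting tried. Of 1520 values of the 76 named peaks under alternatives, 0 turned direction and 80 lost the call, 36 of them with a pseudocount of 5, 12 after centering and 8 after quantile normalization. Leaving out 1 library ended the call at 7 of the peaks, those near Abcc8, Emcn, Foxo1, Gc, Kdr, Mtnr1b and Pcsk2. Reads in peaks limit weak sites, where 1 read and none look alike.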
